A study of Mus musculus with 32 samples.

Results

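The early transcript response of mouse astrocyte cultures to lipopolysaccharide (LPS), in the absence of light, was measured by setting LPS at 4 h against Control at 4 h. The comparison covered 12523 genes of the 21899 in the deposited table, namely those that averaged 1 FPKM or more in either group (a fragment level scaled to transcript length and library size). Each group held 4 RNA sequencing libraries, so 8 of the 32 libraries of the series entered the comparison itself. The study crossed LPS with photobiomodulation (PBM, treatment with light) at 4 h and 24 h, in 8 groups of 4, and its title names the STAT5A/SOCS3 axis. LPS cultures received LPS and no light, Control cultures received neither, and all are labelled primary astrocytes of Mus musculus. The sources used here give neither the dose of LPS nor any vehicle for Control, nor the strain, age or sex of the animals. Whether the 4 libraries of a group came from separate cultures is not stated, so each p-value reflects a spread between libraries that could be technical.

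LPS, a lipid of the outer membrane of Gram-negative bacteria, is bound by CD14 and MD-2 and sensed by Toll-like receptor 4 (TLR4). One arm of the receptor's signalling runs through MyD88 to NF-kappaB and the MAP kinases and switches on chemokines, cytokines and the inhibitors that later shut the pathway down, while the other arm runs through TRIF to IRF3 and type I interferon, whose own receptor then drives antiviral genes through STAT and IRF transcription factors. In the brain, microglia carry most TLR4, and astrocytes answer LPS both directly and through factors released by microglia in the same dish.

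The label was checked against marker genes before the comparison. Of 12 astrocyte markers, Gjb6 was listed at 0 in all 8 libraries and S100b in 7 of them, while Gja1, the main astrocyte gap junction protein, stood at 48.2 to 71.0 FPKM with LPS and 49.8 to 58.9 FPKM in Control. Gfap, the astrocyte intermediate filament, was at 22.4 to 44.6 FPKM with LPS, against 33.8 to 51.9 FPKM in Control. Glul and Aqp4 averaged 57.5 and 23.6 FPKM with LPS and 106.7 and 22.3 FPKM in Control. The remaining markers were lower. Slc1a2, Slc1a3, Aldh1l1, Aldoc, Sox9 and Atp1b2 averaged 3.78 to 10.1 FPKM with LPS and 5.705 to 19.9 FPKM in Control. Those averages lie below 20.9 FPKM, the lowest counting floor for a 1 kb transcript (next paragraph). Markers of endothelial, mural and fibroblast-type cells were uneven but summed higher than the astrocyte and macrophage lists. The endothelial and mural list added up to 1553 to 2071 FPKM with LPS and 1753 to 2118 FPKM in Control. The fibroblast and meninges list added up to 1321 to 1688 FPKM with LPS and 1704 to 2061 FPKM in Control. Tagln, Col3a1 and Dcn averaged 547, 317 and 135 FPKM with LPS and 705, 374 and 110 FPKM in Control. Among the highest of these lists, Acta2 averaged 1121 FPKM with LPS and 1170 FPKM in Control (SD 206 and 165, n = 4 each), and Col1a2, a collagen chain, averaged 617 FPKM with LPS and 670.4 FPKM in Control. Of the same lists, Cldn5, Kcnj8 and Slc6a13 were listed at 0 in all 8 libraries, Pecam1 in 7 and Myh11 in 6, and Rgs5 averaged 3.94 FPKM with LPS and 6.56 FPKM in Control. Macrophage genes were present too, although P2ry12 and Aif1 were listed at 0 in all 8 libraries. The 17 microglia and macrophage markers added up to 475 to 677 FPKM with LPS and 730.4 to 885 FPKM in Control, ranges that did not overlap. Of the 15 tested, 11 had fitted values below 0 and 4 above, and the groups overlapped in each. The 12 astrocyte markers added up to 171 to 249.9 FPKM with LPS and 243 to 384 FPKM in Control. No astrocyte or macrophage marker passed the limma test singly (0 of 11 and 0 of 15 tested). An unadjusted p under 0.05 was found for 3 and 5 of them, and for 12.7% of all tested genes. Which cells carried each change, and what part these markers had in it, was not tested; in bulk RNA, fewer cells of a type and less RNA per cell cannot be told apart.

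Each library held an inferred 133068 to 143841 fragments, read from the step size of its FPKM values, in LPS and Control at 4 h. For a 1 kb transcript, 1 fragment therefore equalled 6.95 to 7.51 FPKM, and 3 fragments, the counting floor, 20.9 to 22.5 FPKM. Ppia, a housekeeping gene, stood at 0 in 4 of these 8 libraries and reached 24.8 FPKM at most. Why it was so low was not tested. Because of such zeros, a zero value is given only as listed. Fold changes are fitted on log2(FPKM + 1) and are given with their SE only for genes above 0 in all 8 libraries; for others that passed the library values stand alone with the adjusted p, and for genes that did not pass a fitted value may be given without its SE.

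Inflammatory and interferon-type genes rose with LPS, and a smaller set fell. In limma with Benjamini-Hochberg adjustment, 304 genes (2.43% of those tested) passed an adjusted p of 0.05, of which 241 (1.92%) were higher and 63 (0.503%) lower with LPS. The lower count rested on the method: limma-voom on approximate fragments, chosen after seeing the data, called 105 lower genes and 279 higher ones. The fitted change was at least 2-fold in 229 of the higher and 45 of the lower genes, and the LPS and Control libraries did not overlap in 235 and 60 of them. Over all tested genes the groups did not overlap in 7.7%, about as often in both directions (3.86% higher and 3.83% lower). A fitted log2 fold change below 0 was found in 56.2% of tested genes, and the median log2 fold change was -0.11. The 241 higher genes, which were chosen by this contrast, took up 8.62%, 8.95%, 9.17% and 8.50% of the FPKM total in the LPS libraries, against 2.01%, 2.39%, 2.16% and 2.21% in Control. A core of 177 genes (158 higher and 19 lower) passed in each of 16 other settings, and 195 (172 higher and 23 lower) passed with each of the 8 libraries left out in turn.

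**Figure D1:**
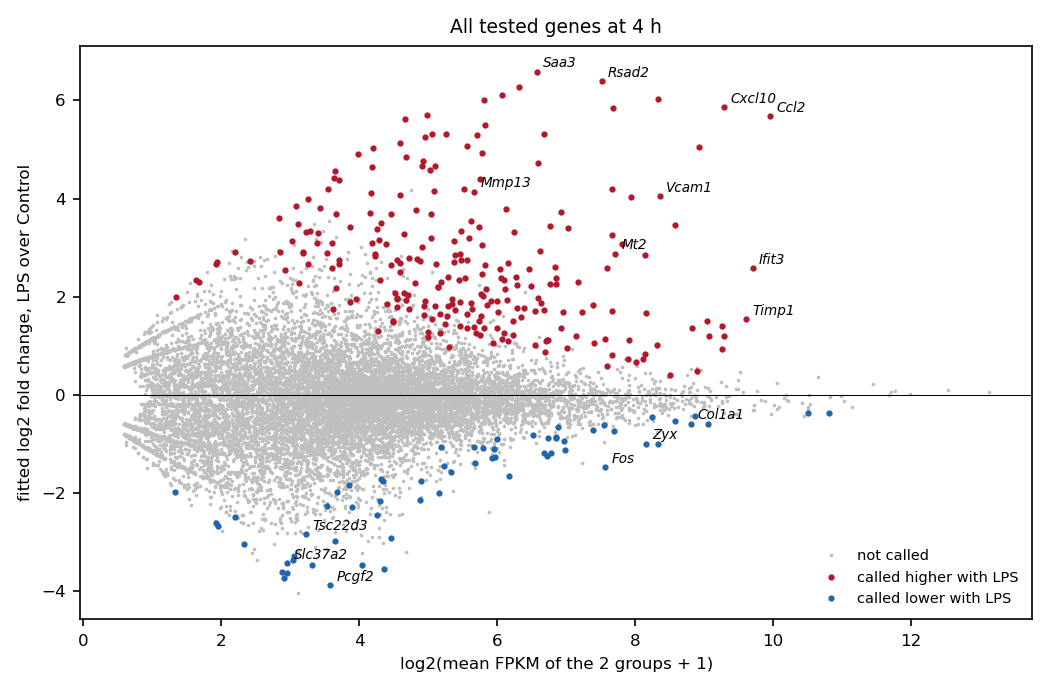
Each point is 1 of the 12523 tested genes, with the log2 of its mean FPKM plus 1 over LPS and Control at 4 h on the x axis and the fitted log2 fold change of LPS over Control on the y axis. Genes called higher (241, red) reach larger fitted values than genes called lower (63, blue), and grey points were not called.

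The receptor itself was not among the genes that moved. Tlr4 had 8.79, 8.53, 9.22 and 16.9 FPKM with LPS, against 11.0, 10.7, 7.10 and 3.42 FPKM in Control, and the groups overlapped (adjusted p = 0.774). Cd14, the co-receptor that hands LPS to TLR4, had 52.4, 42.4, 22.9 and 40.6 FPKM with LPS, against 31.9, 8.87, 8.82 and 12.8 FPKM in Control. All LPS libraries but replicate 3 exceeded every Control library, and Cd14 did not pass (adjusted p = 0.0683), although it did without Control replicate 1 (adjusted p = 0.00732) or without LPS replicate 3 (adjusted p = 0.0432). Ly96, which encodes MD-2, was listed at 0 in 6 of the 8 libraries. Tlr2, the receptor for bacterial lipoproteins, was the member of this list of 13 tested receptors and co-receptors that rose, with 57.1, 64.6, 92.3 and 44.2 FPKM with LPS, against 0, 2.41, 2.40 and 2.32 FPKM in Control (adjusted p = 2.35e-06); the list held 2 without Control replicate 1 or LPS replicate 3, with Cd14.

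Of 27 adaptors and kinases downstream of the receptors, 2 rose. Ripk2, a kinase that NOD receptors use to activate NF-kappaB, had 135, 137, 159 and 129 FPKM with LPS, against 22.2, 48.6, 51.1 and 57.0 FPKM in Control, a log2 fold change of 1.70 ± 0.27 (SE; adjusted p = 0.000665). The LPS libraries were close to each other and all above Control. Ikbke, an IKK-related kinase of the interferon arm, had 25.2, 32.1, 20.8 and 42.0 FPKM with LPS, against 2.30, 4.48, 0 and 14.6 FPKM in Control (adjusted p = 0.0199). This call was lost without LPS replicates 2 or 4 or Control replicates 1 or 3, each left out alone (adjusted p = 0.0551 to 0.072). Myd88, Irak2, Tbk1 and Ticam1 (TRIF) did not pass, with fitted log2 fold changes of 2.50, 2.25, 1.57 and -1.87. The list's median log2 fold change was 0.22, against -0.11 over all tested genes, and it held 1 call without Control replicate 3, LPS replicate 2 or LPS replicate 4.

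Both precursor subunits of NF-kappaB and several of its inhibitors rose. Of 5 subunits, Nfkb1 (p105/p50) and Nfkb2 (p100/p52) passed. Nfkb1 had 130.3, 151, 136 and 91.3 FPKM with LPS, against 27.9, 12.1, 41.5 and 19.3 FPKM in Control, a log2 fold change of 2.40 ± 0.33 (SE; adjusted p = 0.000138). Nfkb2 changed by 1.84 ± 0.23 (SE; adjusted p = 4.65e-05), and both genes had every LPS library above every Control library. Rela, Relb and Rel had fitted log2 fold changes of 0.69, 1.33 and 1.39 and did not pass. Reads of Nfkb2 may include the opposite-strand gene Psd, whose exons overlap it, since no source used here gives the strand used in counting; the same holds for each overlap named below.

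Among 20 NF-kappaB inhibitors and feedback genes, 7 rose and none fell, with a median log2 fold change of 1.53 (1.51 without the member listed at 0 in Control). Nfkbia, the inhibitor IkappaB-alpha that NF-kappaB induces against itself, had 173, 216, 233 and 145 FPKM with LPS, against 56.8, 18.4, 41.3 and 35.4 FPKM in Control. All LPS libraries lay above all Control libraries, and the log2 fold change was 2.39 ± 0.36 (SE; adjusted p = 0.000441). Tnfaip3, the ubiquitin-editing enzyme A20, had 98.9, 127, 132 and 189 FPKM with LPS, against 8.61, 11.8, 13.1 and 17.4 FPKM in Control, a change of 3.33 ± 0.39 (SE; adjusted p = 2.65e-05). Its partner Tnip1 changed by 2.76 ± 0.44 (SE; adjusted p = 0.000698), the RNase Zc3h12a (Regnase-1), which degrades cytokine transcripts, by 2.83 ± 0.44 (SE; adjusted p = 0.000625), and the NF-kappaB target Tnfaip2 by 1.97 ± 0.40 (SE; adjusted p = 0.0083), again without overlap between groups. The other 2 were Nfkbib, which shares exon positions with Sirt2 and lost its call without LPS replicates 1 or 3 or Control replicates 1 or 2, each left out alone (adjusted p = 0.0509 to 0.0805), and N4bp1, which lost it without LPS replicates 1, 2, 3 or 4 or Control replicates 2 or 4, each left out alone (adjusted p = 0.0735 to 0.125).

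The promoters of 3 NF-kappaB-type genes that rose are shown because they carry the letters of a kappaB motif, spelled GGG, 2 bases of any kind and TTTCC and searched on both strands. Each run is the 250 bases before the RefSeq start of the gene, read 5′ to 3′ on the gene's strand in GRCm38.p6, with the motif in capitals. Nfkbia lies on the minus strand (chr12:55492648-55492897), and Cxcl1, a neutrophil chemokine, and Il6 on the plus strand (chr5:90890995-90891244 and chr5:30012864-30013113).
Nfkbia: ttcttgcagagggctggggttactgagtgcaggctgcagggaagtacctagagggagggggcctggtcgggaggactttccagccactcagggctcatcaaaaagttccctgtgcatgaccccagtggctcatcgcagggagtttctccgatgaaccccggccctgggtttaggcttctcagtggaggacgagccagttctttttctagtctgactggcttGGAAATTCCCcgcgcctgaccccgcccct
Cxcl1: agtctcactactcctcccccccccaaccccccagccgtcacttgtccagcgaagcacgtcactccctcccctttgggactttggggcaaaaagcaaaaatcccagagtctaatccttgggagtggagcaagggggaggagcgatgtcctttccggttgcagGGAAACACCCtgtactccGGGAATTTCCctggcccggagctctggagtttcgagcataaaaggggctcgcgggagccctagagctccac
Il6: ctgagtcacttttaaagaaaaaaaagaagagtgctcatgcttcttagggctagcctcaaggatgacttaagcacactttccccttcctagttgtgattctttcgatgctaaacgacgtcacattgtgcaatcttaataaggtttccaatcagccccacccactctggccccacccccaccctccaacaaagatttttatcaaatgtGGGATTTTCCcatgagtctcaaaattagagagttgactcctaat
Cxcl1 held the motif in both orientations and the other genes in one. RefSeq windows of 300 bases (250 before to 50 after a start) were matched by symbol for 9864 of the tested genes. The kappaB letters stood in 7.82% of 243 windows of genes that rose, in 2.78% of 72 windows of genes that fell and in 1.67% of all 12680 windows of tested genes. By list they were in 6 of 25 windows of the NF-kappaB inhibitors and feedback genes and in 3 of 9 windows of the CXC and CX3C chemokines. CC chemokines held them in 2 of 12 windows and interferon-induced effectors in 0 of 52. These shares describe letters and were not tested.

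Chemokines, the secreted proteins that attract leukocytes, gave some of the highest levels in the LPS libraries. Of 14 tested CC chemokines 7 rose, and of 12 tested CXC and CX3C chemokines 5 rose, with median log2 fold changes of 3.25 and 2.23 (4.72 and 3.55 without members listed at 0 in a whole group). Summed over the lists, CC chemokines stood at 3912 to 4066 FPKM with LPS, against 74.8 to 170.5 FPKM in Control, and CXC and CX3C chemokines at 1761 to 2346 FPKM with LPS, against 133 to 194 FPKM in Control.

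Ccl2, the monocyte attractant MCP-1, had 1896, 1958, 2062 and 1885 FPKM with LPS, against 27.6, 44.8, 35.6 and 42.9 FPKM in Control. It ranked between position 10 and 12 of all genes in the LPS libraries and between 1822 and 3118 in Control, and its log2 fold change was 5.68 ± 0.20 (SE; adjusted p = 1.68e-12). Its neighbour in function Ccl7, which also draws monocytes, had 1020.4, 885, 891 and 970.5 FPKM with LPS, against 37.3, 45.4, 9.04 and 34.9 FPKM in Control, a change of 5.06 ± 0.38 (SE; adjusted p = 8.29e-08). Ccl5 (RANTES), a T cell and monocyte attractant, had 593, 601, 593 and 724 FPKM with LPS, against 0, 41.0, 13.6 and 13.1 FPKM in Control. Control replicate 1 was listed at 0, and the highest Control library was far below the lowest LPS library (adjusted p = 0.000668). Ccl3, the macrophage inflammatory protein MIP-1alpha, had 215, 182, 206 and 126 FPKM with LPS, against 0, 19.0, 9.45 and 9.11 FPKM in Control (adjusted p = 0.0011). Ccl4 (MIP-1beta) had 97.8, 116, 125 and 179 FPKM with LPS, against 0, 0, 0 and 10.6 FPKM in Control (adjusted p = 0.000179). They were all higher in LPS libraries, and they are similar in sequence, so reads could be split between them. Ccl20, which attracts cells bearing CCR6, stood at 0 in each of the 4 Control libraries and had 54.2, 57.9, 19.5 and 112 FPKM with LPS (adjusted p = 6.46e-06), and Ccl9 changed by 2.04 ± 0.35 (SE; adjusted p = 0.00168).

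Cxcl10 (IP-10), an interferon-inducible attractant of activated T cells, had 1079, 1396, 1326 and 1094 FPKM with LPS, against 13.7, 33.3, 26.5 and 12.8 FPKM in Control. The groups were separated by a wide margin, and the log2 fold change was 5.87 ± 0.27 (SE; adjusted p = 9.99e-11); Art3 overlaps it on the opposite strand. The neutrophil attractant Cxcl1 had 459, 372, 442 and 326 FPKM with LPS, against 7.83, 15.3, 15.2 and 0 FPKM in Control (adjusted p = 0.00011), and its close relative Cxcl2 had 113, 75.2, 152 and 69.3 FPKM with LPS, against 0, 6.56, 13.1 and 0 FPKM in Control (adjusted p = 0.000672). Both were at or near 0 in Control. Cxcl5, of the same group, stood at 0 in every Control library and had 22.8, 30.9, 62.0 and 23.5 FPKM with LPS (adjusted p = 0.000551). Cxcl16, a membrane-bound chemokine, had 88.8, 68.6, 93.5 and 89.2 FPKM with LPS, against 0, 24.0, 17.1 and 5.17 FPKM in Control. Cxcl16 was not called without LPS replicates 1, 2, 3 or 4 or Control replicates 1 or 4, each left out alone (adjusted p = 0.0513 to 0.068). The steady-state chemokine Cxcl12 did not pass (fitted log2 fold change 0.56).

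**Figure D2:**
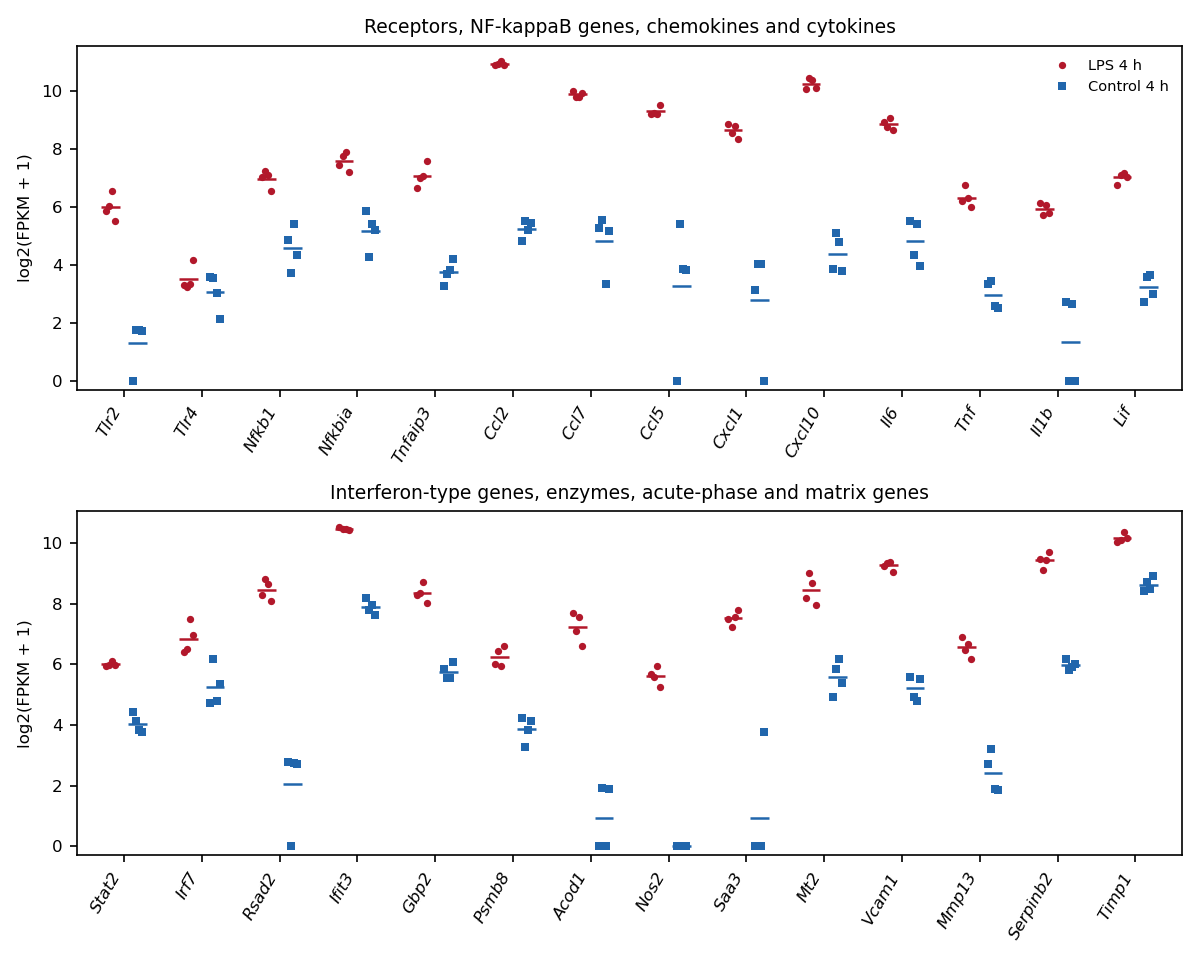
Each point is 1 library at 4 h, LPS in red and Control in blue, with log2(FPKM + 1) on the y axis and genes on the x axis; horizontal bars are means of 4. In all of the genes shown but Tlr4, every LPS library lies above every Control library, and Nos2 is listed at 0 in all Control libraries.

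Of 31 tested interleukins, TNF family members and colony-stimulating factors, 12 rose and none fell (median log2 fold change 1.71, and 1.01 without members listed at 0 in a whole group). Lif, an interleukin-6 family cytokine, had 106, 137, 144 and 129 FPKM with LPS, against 5.56, 10.8, 11.4 and 6.93 FPKM in Control, a log2 fold change of 3.79 ± 0.25 (SE; adjusted p = 1.53e-08). Il6 had 479.9, 434, 529 and 397 FPKM with LPS, against 44.7, 19.2, 41.9 and 14.5 FPKM in Control. The LPS libraries were alike, while Control split into a higher and a lower pair without reaching LPS, and the change was 4.03 ± 0.86 (SE; adjusted p = 0.0112). Tnf had 72.1, 107, 78.0 and 63.2 FPKM with LPS, against 9.11, 9.95, 4.95 and 4.77 FPKM in Control, a change of 3.34 ± 0.50 (SE; adjusted p = 0.000402). Il1b, made as an inactive precursor, had 68.7, 51.3, 66.5 and 54.6 FPKM with LPS, against 5.51, 0, 5.34 and 0 FPKM in Control (adjusted p = 6.76e-05). Il1rn, the antagonist of the interleukin-1 receptor, had 57.5, 117, 37.8 and 41.7 FPKM with LPS, against 0, 0, 0 and 3.51 FPKM in Control (adjusted p = 0.000117), so that both the cytokine and its blocker were higher in all 4 LPS libraries. Csf1, the growth factor of macrophages, was already high, with 668, 701, 542 and 698 FPKM with LPS, against 184, 291, 228 and 320.1 FPKM in Control, and changed by 1.37 ± 0.16 (SE; adjusted p = 1.64e-05). Tnfsf15 changed by 3.02 ± 0.38 (SE; adjusted p = 5.49e-05). Il27, a regulatory cytokine subunit that overlaps Apobr, stood at 0 in every Control library and had 14.0, 20.4, 7.36 and 7.25 FPKM with LPS (adjusted p = 0.000342). Tslp, an epithelial cytokine, stood at 0 in all of Control too and had 12.7, 12.3, 26.7 and 39.5 FPKM with LPS (adjusted p = 0.00313). With a pseudocount of 0.1 FPKM in place of 1, the calls of Il6 (adjusted p = 0.225), Tnf (0.0538) and Ccl3 (0.0709) were lost. That was 1 of 16 other settings, and each kept its call in the rest. Il6 and Tnf were above 0 in every LPS and Control library. PBM libraries, which share the estimate of the spread, were at 0 for Il6 in replicates 3 and 4 and for Tnf in replicate 1. The part of these zeros in the lost calls was not tested. Ifnb1, which encodes interferon-beta, was listed at 0 in all 8 libraries and stayed outside the test. Il10 did not pass (fitted log2 fold change -0.02).

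Among 30 tested cytokine receptors 7 rose, with a median log2 fold change of 0.72. Osmr, the oncostatin M receptor, had 60.1, 81.0, 52.0 and 59.8 FPKM with LPS, against 24.4, 15.9, 19.8 and 14.0 FPKM in Control, a change of 1.73 ± 0.35 (SE; adjusted p = 0.00675). Tnfrsf1b (TNF receptor 2) changed by 2.30 ± 0.40 (SE; adjusted p = 0.00156), while Tnfrsf1a (TNF receptor 1) had a fitted value of -0.02 and did not pass. Cd40, a co-stimulatory receptor, had 55.3, 71.2, 63.7 and 44.1 FPKM with LPS, against 4.68, 0, 0 and 0 FPKM in Control (adjusted p = 0.000166). Il1rl1, the receptor of interleukin-33, had 84.7, 52.9, 33.6 and 77.4 FPKM with LPS, against 8.42, 0, 2.72 and 2.62 FPKM in Control (adjusted p = 0.00216). Il15ra had 37.2, 37.4, 19.5 and 31.0 FPKM with LPS, against 4.84, 4.72, 0 and 0 FPKM in Control (adjusted p = 0.0111). Both calls were lost with a pseudocount of 0.1 FPKM (adjusted p = 0.065 for each of Il1rl1 and Il15ra). Fas, the death receptor, lost its call without any 1 of the 8 libraries (adjusted p = 0.0512 to 0.125), and Ifnar1, a chain of the type I interferon receptor, without LPS replicates 1, 3 or 4 or Control replicates 1, 2 or 3, each left out alone (adjusted p = 0.0649 to 0.162).

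The transcription factors that act behind interferon receptors rose in part. Of 26 tested IRF, STAT, JAK and SOCS genes 5 rose, and none fell (median log2 fold change 0.90). Stat2 had 60.4, 61.7, 68.4 and 62.3 FPKM with LPS, against 20.4, 16.6, 13.2 and 12.7 FPKM in Control, a log2 fold change of 1.96 ± 0.27 (SE; adjusted p = 0.000166). Irf1 had 73.2, 69.6, 42.2 and 82.6 FPKM with LPS, against 18.0, 37.5, 11.5 and 10.1 FPKM in Control (log2 fold change 1.89 ± 0.41, SE; adjusted p = 0.0144). Irf1 was not called without LPS replicate 4 or Control replicates 3 or 4, each left out alone (adjusted p = 0.0536 to 0.0606). Irf7, the interferon-amplifying factor, which overlaps Phrf1, changed by 1.58 ± 0.40 (SE; adjusted p = 0.042) and lost its call without LPS replicates 2, 3 or 4 or Control replicates 1, 3 or 4, each left out alone (adjusted p = 0.0563 to 0.149). Ptpn2, a phosphatase that acts on JAK and STAT proteins, changed by 1.98 ± 0.43 (SE; adjusted p = 0.0129) and lost its call without LPS replicate 2 or Control replicate 4, each left out alone (adjusted p = 0.0517 to 0.0562). The list held 3 higher genes without Control replicate 3 or LPS replicate 4 and 2 without Control replicate 4 or LPS replicate 2.

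The genes named in the study's title did not pass without light at 4 h. Stat5a, which overlaps Stat3 on the opposite strand, had 4.73, 39.6, 16.1 and 11.9 FPKM with LPS, against 0, 0, 6.02 and 3.87 FPKM in Control. LPS replicate 1 lay within the Control range and the other LPS libraries above it (adjusted p = 0.116). Socs3, the feedback inhibitor of cytokine receptors of the gp130 type, had 16.9, 21.8, 14.7 and 14.5 FPKM with LPS, against 26.3, 34.2, 36.9 and 27.4 FPKM in Control. Every LPS library lay below every Control library, and the fitted change was -0.84 ± 0.66 (SE; adjusted p = 0.634). In PBM cultures, which share no library with these, Stat5a had 19.9, 41.4, 41.2 and 49.5 FPKM with LPS+PBM, against 0, 5.87, 0 and 0 FPKM with PBM alone (adjusted p = 0.00275). Socs3 had 58.4, 32.1, 78.2 and 55.0 FPKM with LPS+PBM, against 0, 11.1, 20.4 and 16.4 FPKM with PBM alone (adjusted p = 0.029). The difference between the effects with and without light passed for neither gene (adjusted p = 0.8 for Stat5a and 0.347 for Socs3).

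Interferon-induced effectors were the list with the most genes that rose. Of 53 tested, 39 rose, all 53 had a fitted value above 0, and the median log2 fold change was 2.10; summed FPKM ran from 7761 to 8617 with LPS and from 2057 to 2665 in Control. Rsad2 (viperin), an enzyme that makes an antiviral nucleotide, had 314, 447, 403 and 271 FPKM with LPS, against 5.92, 0, 5.74 and 5.54 FPKM in Control (adjusted p = 2.78e-07). Cmpk2, its neighbour and a mitochondrial nucleotide kinase, had 215, 228, 207 and 141 FPKM with LPS, against 4.67, 9.10, 2.26 and 2.18 FPKM in Control, a change of 5.31 ± 0.46 (SE; adjusted p = 5.66e-07). Mx1, a GTPase against influenza-type viruses, had 97.7, 158, 122 and 55.7 FPKM with LPS, against 0, 5.40, 0 and 0 FPKM in Control (adjusted p = 5.12e-05). In Control these genes were at or near 0, whereas the Ifit genes were not.

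Ifit3, of a family of RNA-binding antiviral proteins, had 1478, 1431, 1424 and 1382 FPKM with LPS, against 290.0, 224, 247 and 195 FPKM in Control, a log2 fold change of 2.59 ± 0.14 (SE; adjusted p = 1.14e-09). Ifit1 changed by 2.85 ± 0.20 (SE; adjusted p = 3.92e-08), Ifit2 by 3.72 ± 0.23 (SE; adjusted p = 7.04e-09) and Ifit3b, a near copy of Ifit3 with which it could share reads, by 3.27 ± 0.24 (SE; adjusted p = 4.63e-08). Parp14, an ADP-ribosyltransferase, had 87.0, 93.7, 86.1 and 75.9 FPKM with LPS, against 7.05, 6.87, 7.81 and 13.2 FPKM in Control, a change of 3.20 ± 0.28 (SE; adjusted p = 6.32e-07). Ifi203, a member of the PYHIN family of DNA sensors, changed by 2.88 ± 0.29 (SE; adjusted p = 3.4e-06) and shares exon positions with Mndal. In all of these the LPS and Control libraries were separate. Among the 14 members that did not pass were Bst2, Isg20 and Zbp1, with fitted values of 0.54, 1.41 and 2.10.

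Guanylate-binding proteins and immunity-related GTPases, which attack the membranes around intracellular microbes, were the list with the highest share of members that rose, 14 of 16 (median log2 fold change 2.58). The summed level was 1995 to 2627 FPKM with LPS and 547 to 638 FPKM in Control. Gbp2 had 313, 323, 424 and 262 FPKM with LPS, against 56.9, 46.3, 46.0 and 66.5 FPKM in Control, a log2 fold change of 2.59 ± 0.22 (SE; adjusted p = 4.88e-07). Gbp5, which promotes inflammasome assembly, had 95.0, 139, 125 and 77.5 FPKM with LPS, against 0, 4.76, 0 and 4.57 FPKM in Control (adjusted p = 6.84e-06). Gbp4 had 117, 96.0, 104 and 79.3 FPKM with LPS, against 1.66, 13.8, 0 and 0 FPKM in Control (adjusted p = 2.69e-05). Gbp6 changed by 2.57 ± 0.22 (SE; adjusted p = 3.65e-07). Among the smaller GTPases, Iigp1 had 195, 198, 158 and 136 FPKM with LPS, against 15.3, 32.3, 12.0 and 33.4 FPKM in Control, a change of 2.94 ± 0.33 (SE; adjusted p = 1.3e-05). Irgm2 changed by 2.39 ± 0.28 (SE; adjusted p = 1.76e-05), Igtp by 2.34 ± 0.36 (SE; adjusted p = 0.000621) and Tgtp2 by 1.84 ± 0.19 (SE; adjusted p = 3.84e-06). No LPS library of these overlapped with Control. Members of the family are similar, and the exons of Gbp4, Gbp8 and Gbp9, like those of Igtp and Irgm2, overlap, so their shares of reads are uncertain.

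The promoters of 3 genes are shown for the interferon-stimulated response element (ISRE), spelled TTTC, 2 bases of any kind and TTTC and searched on both strands, with the match in capitals. They are again 250 bases before the RefSeq start in GRCm38.p6, 5′ to 3′ on the gene's strand: Cxcl10 on the minus strand (chr5:92348890-92349139), Rsad2 on the minus strand (chr12:26456453-26456702) and Ifit3 on the plus strand (chr19:34583279-34583528).
Cxcl10: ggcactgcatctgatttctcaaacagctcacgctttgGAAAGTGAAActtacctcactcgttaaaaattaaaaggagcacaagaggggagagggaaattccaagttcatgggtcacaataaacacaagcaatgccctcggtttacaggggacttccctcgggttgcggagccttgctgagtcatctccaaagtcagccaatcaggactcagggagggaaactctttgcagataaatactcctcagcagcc
Rsad2: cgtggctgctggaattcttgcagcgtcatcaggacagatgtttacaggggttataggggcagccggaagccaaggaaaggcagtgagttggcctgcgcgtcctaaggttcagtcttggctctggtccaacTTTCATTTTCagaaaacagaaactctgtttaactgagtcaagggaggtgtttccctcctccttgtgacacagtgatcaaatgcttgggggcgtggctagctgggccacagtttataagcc
Ifit3: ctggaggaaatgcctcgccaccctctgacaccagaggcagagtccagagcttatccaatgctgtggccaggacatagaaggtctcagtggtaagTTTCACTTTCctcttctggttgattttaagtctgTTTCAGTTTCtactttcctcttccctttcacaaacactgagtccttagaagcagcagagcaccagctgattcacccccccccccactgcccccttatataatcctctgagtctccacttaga
Ifit3 held the motif at 2 places, and Cxcl10 held it on the strand opposite to the gene. The letters stood in 20.2% of 243 windows of genes that rose, in 1.39% of 72 windows of genes that fell and in 3.17% of the 12680 windows of tested genes. By list they stood in 9 of 11 windows of guanylate-binding and immunity-related GTPases and in 19 of 52 windows of interferon-induced effectors, against 0 of 25 windows of the NF-kappaB inhibitors and feedback genes. Of the 243 windows of genes that rose, 1 held both motifs. Other letters were searched too. A TATA box (TATAAA) stood in 23.5% of windows of genes that rose, 11.1% of those that fell and 7.45% of all. For AP-1 (TGACTCA) these shares were 11.5%, 9.72% and 3.9%, and for CRE (TGACGTCA) 2.47%, 0% and 2.97%. A higher share in genes that rose was thus not particular to ISRE and kappaB, and these shares were not tested. A match describes the letters in this window only.

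**Figure D3:**
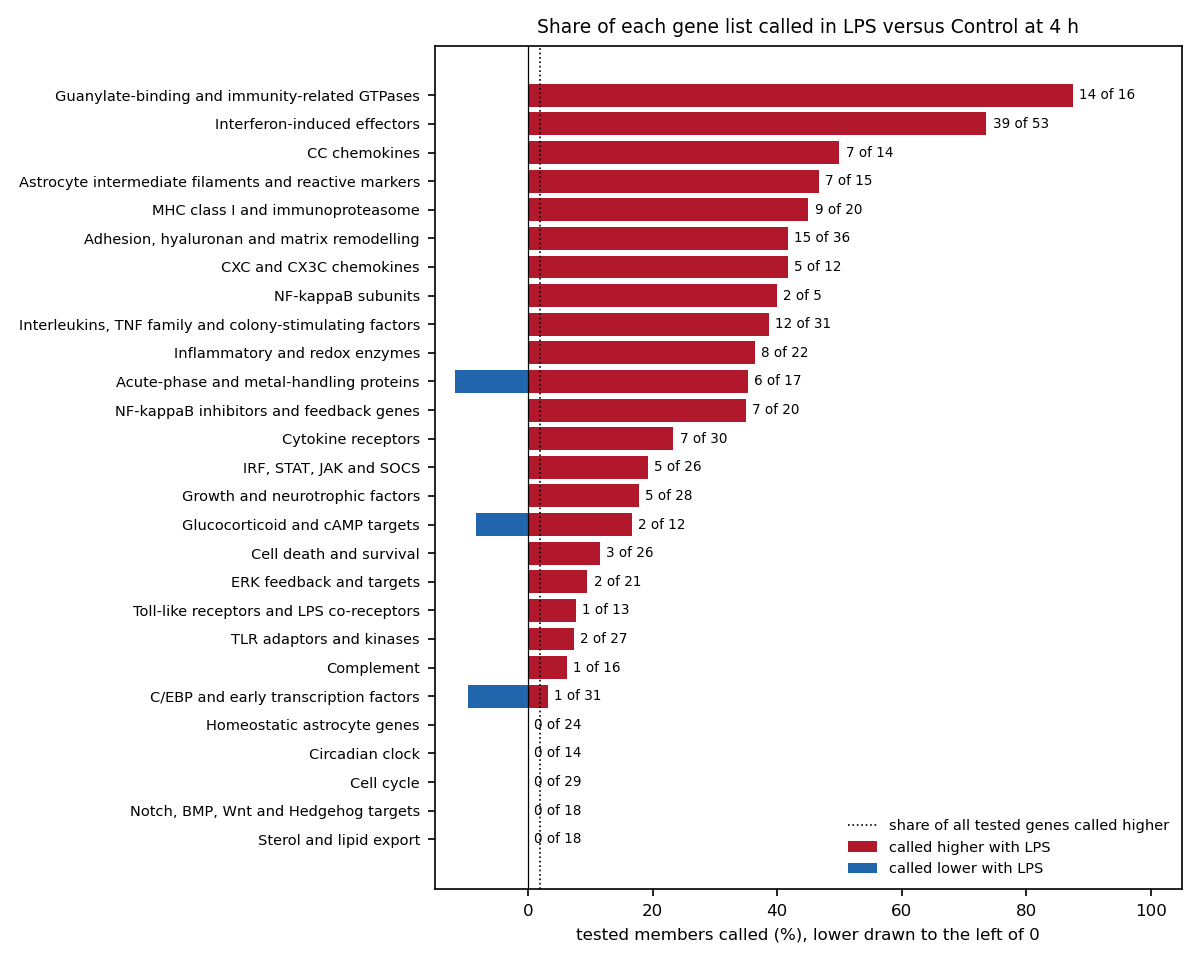
Each bar is 1 gene list at 4 h, with the share of its tested members called higher with LPS in red to the right of 0 and called lower in blue to the left; the count beside each bar is the number called higher of the number tested, and the dotted line marks the 1.92% of all tested genes called higher. Guanylate-binding and immunity-related GTPases (14 of 16) and interferon-induced effectors (39 of 53) lie at the top, and 5 lists have no member called.

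Genes of MHC class I presentation, which shows peptides to CD8+ T cells, rose in part. Of 20 tested members, 9 passed, all 20 had fitted values above 0, and the median log2 fold change was 1.12. Tap1, a chain of the peptide transporter, had 89.8, 101, 73.8 and 100.3 FPKM with LPS, against 13.2, 22.2, 12.3 and 16.5 FPKM in Control, a change of 2.46 ± 0.26 (SE; adjusted p = 6.41e-06); Psmb9 overlaps it on the opposite strand. The immunoproteasome subunit Psmb8 had 64.0, 85.4, 60.4 and 96.4 FPKM with LPS, against 17.8, 8.66, 13.3 and 16.6 FPKM in Control (adjusted p = 0.000125). Psmb10, another, had 60.2, 53.0, 68.8 and 39.5 FPKM with LPS, against 0, 11.1, 5.52 and 16.0 FPKM in Control (adjusted p = 0.0112), and lost its call with a pseudocount of 0.1 FPKM in place of 1 (adjusted p = 0.0833). The classical heavy chain H2-K1 had 249, 275, 481 and 304 FPKM with LPS, against 131, 229, 125 and 117 FPKM in Control, a change of 1.12 ± 0.23 (SE; adjusted p = 0.00872), with all LPS libraries above Control. H2-Q4 changed by 1.92 ± 0.30 (SE; adjusted p = 0.000577) and H2-T22 by 1.12 ± 0.22 (SE; adjusted p = 0.00465). H2-D1 changed by 0.67 ± 0.15 (SE; adjusted p = 0.0136) and lost its call without LPS replicate 4 or Control replicate 4, each left out alone (adjusted p = 0.0519 to 0.0599). Class I heavy chains are near-identical in places, so their separate values are uncertain. B2m, the shared light chain, had a fitted value of 0.37 and did not pass.

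Enzymes that make inflammatory mediators rose in 8 of 22 cases. Nos2, inducible nitric oxide synthase, stood at 0 in each of the 4 Control libraries and had 50.4, 47.0, 61.0 and 37.1 FPKM with LPS (adjusted p = 1.2e-07). Slc7a2, the carrier that brings its substrate arginine into the cell, had 385, 404, 395 and 352 FPKM with LPS, against 12.3, 24.8, 29.9 and 17.4 FPKM in Control, a log2 fold change of 4.19 ± 0.26 (SE; adjusted p = 7.15e-09), so that the synthase and the carrier were both higher in all LPS libraries. Acod1, which makes itaconate, had 205, 135, 186 and 96.0 FPKM with LPS, against 0, 2.77, 0 and 2.66 FPKM in Control (adjusted p = 6.47e-07). Ch25h, which makes the antiviral sterol 25-hydroxycholesterol, had 72.4, 60.1, 75.9 and 80.1 FPKM with LPS, against 0, 0, 0 and 10.1 FPKM in Control (adjusted p = 0.000202). The prostaglandin E2 pathway had a higher starting level. Ptgs2 (cyclooxygenase-2) had 837, 721, 763 and 799.7 FPKM with LPS, against 223, 278, 273 and 332 FPKM in Control, a change of 1.50 ± 0.12 (SE; adjusted p = 1.2e-07). Ptges, the next enzyme, changed by 2.16 ± 0.23 (SE; adjusted p = 6.41e-06), while Ptgs1 (cyclooxygenase-1) had a fitted value of 0.10 and did not pass. Odc1, of polyamine synthesis, changed by 0.82 ± 0.19 (SE; adjusted p = 0.0206) and lost its call without LPS replicates 1, 3 or 4 or Control replicate 3, each left out alone (adjusted p = 0.0598 to 0.0777), and Nampt, of NAD synthesis, lost it without LPS replicates 1, 2, 3 or 4 or Control replicates 3 or 4, each left out alone (adjusted p = 0.0559 to 0.137). Sod2 and Hmox1 did not pass (fitted values 1.22 and 0.18).

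Acute-phase and metal-handling proteins went both ways, with 6 of 17 tested higher and 2 lower. Saa3, a serum amyloid A protein, had 181, 150.3, 189.6 and 221 FPKM with LPS, against 0, 0, 0 and 12.6 FPKM in Control (adjusted p = 3.84e-06). Lcn2, a lipocalin that binds bacterial iron carriers, stood at 0 in every Control library and had 39.2, 30.4, 24.6 and 24.3 FPKM with LPS (adjusted p = 6.41e-06). The metallothioneins, which bind zinc and copper, rose together: Mt2 had 295, 517, 412 and 246 FPKM with LPS, against 29.2, 57.0, 70.8 and 41.0 FPKM in Control (log2 fold change 2.88 ± 0.30, SE; adjusted p = 5.64e-06) and Mt1 changed by 2.68 ± 0.29 (SE; adjusted p = 9.85e-06). All LPS libraries of both lay above Control. Among the iron genes, a storage protein and the exporter were lower. Ftl1, the light chain of the iron store ferritin, had 1644, 1553, 1607 and 1451 FPKM with LPS, against 2067, 2285, 2011 and 1701 FPKM in Control, a change of -0.36 ± 0.08 (SE; adjusted p = 0.0119), with the groups apart; its call was lost with quantile normalization (adjusted p = 0.0825) and with only LPS and Control in the fit (0.071). Slc40a1 (ferroportin), the exporter of iron, was listed at 0 in all LPS libraries and had 2.22, 6.48, 10.7 and 38.4 FPKM in Control (adjusted p = 0.0229), and lost its call without LPS replicates 1, 2, 3 or 4 or Control replicates 3 or 4, each left out alone (adjusted p = 0.0563 to 0.0784). Slc11a2 (DMT1), an importer of iron, changed by 2.40 ± 0.61 (SE; adjusted p = 0.0418) and lost its call without LPS replicates 1, 2, 3 or 4 or Control replicates 1, 3 or 4, each left out alone (adjusted p = 0.0524 to 0.15), and Steap4, a metalloreductase, lost it without LPS replicates 1, 2, 3 or 4 or Control replicates 1, 2 or 4, each left out alone (adjusted p = 0.0592 to 0.0944). Without Control replicate 3 or 4, or without any LPS replicate, 1 member was lower.

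Of 15 tested intermediate filament and reactive astrocyte genes, 7 rose: Lcn2, Timp1, Cd44, Osmr, Steap4, Cxcl10 and Vcan, most of them also members of other lists. The filament genes did not pass at 4 h. Gfap had 29.9, 44.6, 25.5 and 22.4 FPKM with LPS, against 33.8, 38.6, 51.9 and 44.9 FPKM in Control, with overlap between the groups (log2 fold change -0.48 ± 0.30, SE; adjusted p = 0.555), and Vim and Nes had fitted values of -0.25 and -0.33. In complement, 1 of 16 tested genes rose. C3, the central component, had 40.5, 39.2, 49.8 and 46.0 FPKM with LPS, against 4.36, 2.83, 1.41 and 0 FPKM in Control (adjusted p = 4.88e-05). Cfb and C4b did not pass (2.01 and 0.74), and the C1q chains, made by macrophages, had fitted values of -0.27, -0.16 and -0.66 for C1qa, C1qb and C1qc.

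Adhesion molecules and matrix regulators rose in 15 of 36 cases, none fell, and the median log2 fold change was 0.90. Vcam1, which holds leukocytes through the integrin VLA-4, had 606, 658, 672 and 534 FPKM with LPS, against 47.0, 29.4, 27.0 and 45.2 FPKM in Control, a log2 fold change of 4.05 ± 0.20 (SE; adjusted p = 1.67e-10). Icam1, a ligand of leukocyte beta-2 integrins, had 226, 258, 222 and 237 FPKM with LPS, against 14.7, 23.0, 22.8 and 27.5 FPKM in Control, a change of 3.39 ± 0.22 (SE; adjusted p = 9.12e-09). The groups were far apart in both. Ptx3, a pentraxin that binds microbes and hyaluronan matrix, changed by 3.08 ± 0.22 (SE; adjusted p = 3.92e-08). Cd44, the hyaluronan receptor, had 869.5, 734, 784 and 834 FPKM with LPS, against 438, 439.7, 410.3 and 400.2 FPKM in Control, a small change with a small error, 0.93 ± 0.10 (SE; adjusted p = 7.06e-06). Among proteases and their inhibitors, the collagenase Mmp13 had 118, 88.4, 101 and 72.0 FPKM with LPS, against 5.59, 8.17, 2.71 and 2.61 FPKM in Control (log2 fold change 4.15 ± 0.37, SE; adjusted p = 6.09e-07). The inhibitor of plasminogen activators Serpinb2 had 709, 556, 694 and 839 FPKM with LPS, against 72.0, 55.4, 58.8 and 63.8 FPKM in Control (log2 fold change 3.46 ± 0.17, SE; adjusted p = 1.67e-10). The metalloproteinase inhibitor Timp1 had 1061, 1090.3, 1311 and 1159 FPKM with LPS, against 342, 419.8, 355 and 481 FPKM in Control (log2 fold change 1.54 ± 0.11, SE; adjusted p = 2.37e-08). Protease and inhibitors were all higher in every LPS library than in any Control library. Sdc4, a heparan sulfate proteoglycan, changed by 1.68 ± 0.17 (SE; adjusted p = 2.85e-06). Vcan, a chondroitin sulfate proteoglycan, changed by 1.50 ± 0.38 (SE; adjusted p = 0.0404) and lost its call without LPS replicates 2 or 3 or Control replicates 1, 2 or 4, each left out alone (adjusted p = 0.051 to 0.15).

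Growth factors moved in 5 of 28 cases, all higher. Inhba, the beta-A subunit of activin A, had 777, 914, 885 and 890.0 FPKM with LPS, against 340.4, 446, 362 and 370.2 FPKM in Control, a log2 fold change of 1.19 ± 0.16 (SE; adjusted p = 0.000161). Ereg, a ligand of the EGF receptor, had 168, 160.0, 171 and 213 FPKM with LPS, against 27.1, 33.5, 43.8 and 42.3 FPKM in Control (log2 fold change 2.27 ± 0.19, SE; adjusted p = 4.1e-07). Vegfa, the endothelial growth factor, changed by 1.36 ± 0.21 (SE; adjusted p = 0.000595). Pdgfb had 60.9, 81.7, 68.8 and 67.9 FPKM with LPS, against 7.61, 14.0, 17.2 and 4.74 FPKM in Control (log2 fold change 2.71 ± 0.38, SE; adjusted p = 0.000202). The groups did not overlap in these 4. Tgfb2 changed by 1.75 ± 0.41 (SE; adjusted p = 0.0229) and lost its call without LPS replicates 1 or 4 or Control replicates 1, 2 or 4, each left out alone (adjusted p = 0.051 to 0.0916). Bdnf and Gdnf did not pass, with fitted values of -0.79 and 1.32.

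Of 21 feedback genes and targets of ERK, 2 rose. Errfi1, which inhibits the EGF receptor, had 125, 158, 106 and 124 FPKM with LPS, against 24.6, 26.4, 28.6 and 25.2 FPKM in Control (log2 fold change 2.24 ± 0.23, SE; adjusted p = 4.61e-06). Phlda1 had 47.8, 60.6, 57.8 and 57.0 FPKM with LPS, against 7.66, 26.1, 7.43 and 10.7 FPKM in Control (adjusted p = 0.000959). In the same list, Dusp1, Dusp6 and Spry2 had fitted values of -0.53, -0.78 and -0.13 and did not pass. Among 26 cell death and survival genes 3 rose. Cflar (c-FLIP), which blocks caspase-8, had 73.8, 109, 100.1 and 84.1 FPKM with LPS, against 35.0, 48.1, 41.4 and 39.3 FPKM in Control (log2 fold change 1.14 ± 0.21, SE; adjusted p = 0.00313). Casp4 (caspase-11 in the mouse), the sensor of LPS inside cells, stood at 0 in every Control library and had 27.3, 27.4, 36.7 and 5.16 FPKM with LPS (adjusted p = 0.00149). Nlrp3, the inflammasome sensor, had 9.11, 15.9, 31.9 and 3.76 FPKM with LPS, against 1.90, 0, 1.84 and 0 FPKM in Control. Nlrp3 was not called without LPS replicates 2 or 3 or Control replicates 2 or 4, each left out alone (adjusted p = 0.0563 to 0.0788). Among 12 glucocorticoid and cAMP targets, Rgs16, a regulator of G protein signalling, had 297, 303, 321 and 319.7 FPKM with LPS, against 76.6, 124, 83.5 and 95.5 FPKM in Control (log2 fold change 1.72 ± 0.16, SE; adjusted p = 9.37e-07). Pde4b, which breaks down cAMP, changed by 1.51 ± 0.37 (SE; adjusted p = 0.0338) and lost its call without LPS replicates 1, 2 or 3 or Control replicates 1, 2 or 4, each left out alone (adjusted p = 0.0571 to 0.115). Tsc22d3 (GILZ), a glucocorticoid-induced inhibitor of NF-kappaB, was the member that fell, with 3.63, 0, 0 and 3.75 FPKM with LPS, against 18.7, 11.1, 19.2 and 10.6 FPKM in Control (adjusted p = 0.0123), and lost its call with only LPS and Control in the fit (adjusted p = 0.0837). The list held 1 higher gene without LPS replicate 1, 2 or 3 or Control replicate 1, 2 or 4, and 2 lower genes without LPS replicate 1.

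Of 31 C/EBP and early transcription factors, 3 fell, 1 rose and 27 did not pass, and 21 had fitted values below 0, as had 56.2% of all tested genes (median -0.38, against -0.11 over all tested genes). In LPS+PBM against PBM at 4 h, 7 of the same 31 genes were higher and 0 lower, with a median of 0.92. Fos, a subunit of AP-1, had 119, 95.6, 103 and 80.8 FPKM with LPS, against 273, 300.3, 316 and 218 FPKM in Control. Every LPS library was below every Control library, and the log2 fold change was -1.46 ± 0.19 (SE; adjusted p = 9.25e-05). Nr4a1, an orphan nuclear receptor, had 31.8, 50.5, 33.4 and 38.9 FPKM with LPS, against 84.4, 103, 78.9 and 67.6 FPKM in Control, a change of -1.10 ± 0.25 (SE; adjusted p = 0.0184). The call of Nr4a1 was lost without LPS replicates 1 or 3 or Control replicates 1 or 2, each left out alone (adjusted p = 0.0514 to 0.0751). Ier2 had 61.2, 31.9, 24.7 and 24.3 FPKM with LPS, against 58.8, 100.3, 114 and 64.1 FPKM in Control, with LPS replicate 1 inside the Control range, a change of -1.27 ± 0.29 (SE; adjusted p = 0.0221). Ier2 was not called without LPS replicates 2, 3 or 4 or Control replicates 2 or 3, each left out alone (adjusted p = 0.0562 to 0.0895). Cebpd, which works with NF-kappaB on acute-phase genes, had 57.4, 46.4, 52.2 and 43.2 FPKM with LPS, against 21.7, 23.3, 16.6 and 18.6 FPKM in Control (log2 fold change 1.27 ± 0.33, SE; adjusted p = 0.049), with no overlap, but lost its call without any 1 of the 8 libraries (adjusted p = 0.0711 to 0.134). The list held 0 higher genes without any library but Control replicate 2, and 1 lower gene without Control replicate 2 or LPS replicate 3. Jun, Egr1 and Atf3 did not pass (-0.10, -0.57 and -0.77).

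In the authors' deposited annotation of transcription factor families, 1023 tested genes had a family, of which 14 were higher and 7 lower. With 1.92% of all tested genes higher and 0.503% lower, these counts say nothing particular to transcription factors. Beside the members above, the higher ones included Rbpj, the DNA-binding partner of Notch (81.6 ± 3.88 FPKM with LPS and 39.4 ± 8.54 FPKM in Control, SD, n = 4 each; adjusted p = 0.00531), and Hmga1, an architectural chromatin protein (296.5 ± 28.9 FPKM with LPS and 179 ± 19.9 FPKM in Control; adjusted p = 0.0111). The lower ones included Mxd4, an antagonist of MYC that dimerizes with MAX (10.25 ± 3.83 FPKM with LPS and 46.9 ± 8.39 FPKM in Control; adjusted p = 0.000229), and Cux1, a homeodomain protein (19.7 ± 8.83 FPKM with LPS and 53.0 ± 16.9 FPKM in Control; adjusted p = 0.0402). These 4 were picked after their values were seen.

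Of the 63 genes that fell, 45 had a fitted change of at least 2-fold and 9 were listed at 0 in a whole group. Col1a1, a chain of type I collagen and a fibroblast marker, had 347, 353, 365 and 367 FPKM with LPS, against 535, 584, 503 and 527 FPKM in Control, a log2 fold change of -0.58 ± 0.10 (SE; adjusted p = 0.00141). Cavin1, a coat protein of caveolae, changed by -0.53 ± 0.10 (SE; adjusted p = 0.00235), Akap12, a scaffold for protein kinase A, by -0.59 ± 0.10 (SE; adjusted p = 0.0014). The serine protease Prss23 had 269, 169, 206 and 216 FPKM with LPS, against 436, 477, 456 and 344 FPKM in Control (adjusted p = 0.00122). Zyx (zyxin), a focal adhesion protein that overlaps Epha1, had 170.4, 260.5, 198 and 142 FPKM with LPS, against 395, 408, 294 and 414 FPKM in Control (log2 fold change -0.99 ± 0.18, SE; adjusted p = 0.00356). Vcl (vinculin) changed by -0.45 ± 0.11 (SE; adjusted p = 0.0365) and lost its call without LPS replicates 1, 3 or 4 or Control replicates 2, 3 or 4, each left out alone (adjusted p = 0.0646 to 0.129). Psap, the precursor of the saposins of the lysosome, changed by -0.42 ± 0.09 (SE; adjusted p = 0.0117), a call lost with only LPS and Control in the fit (adjusted p = 0.0532), and the lysosomal protease Ctsd by -0.37 ± 0.08 (SE; adjusted p = 0.0153), whose call was lost without LPS replicates 1 or 2 or Control replicates 1 or 3, each left out alone (adjusted p = 0.0501 to 0.0541). In all of these every LPS library was below every Control library. The macrophage markers given above were also lower in sum with LPS, though 4 of the 15 tested had fitted values above 0. Ctsd and Psap are high in macrophages. The part of macrophages in these falls was not tested.

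**Figure D4:**
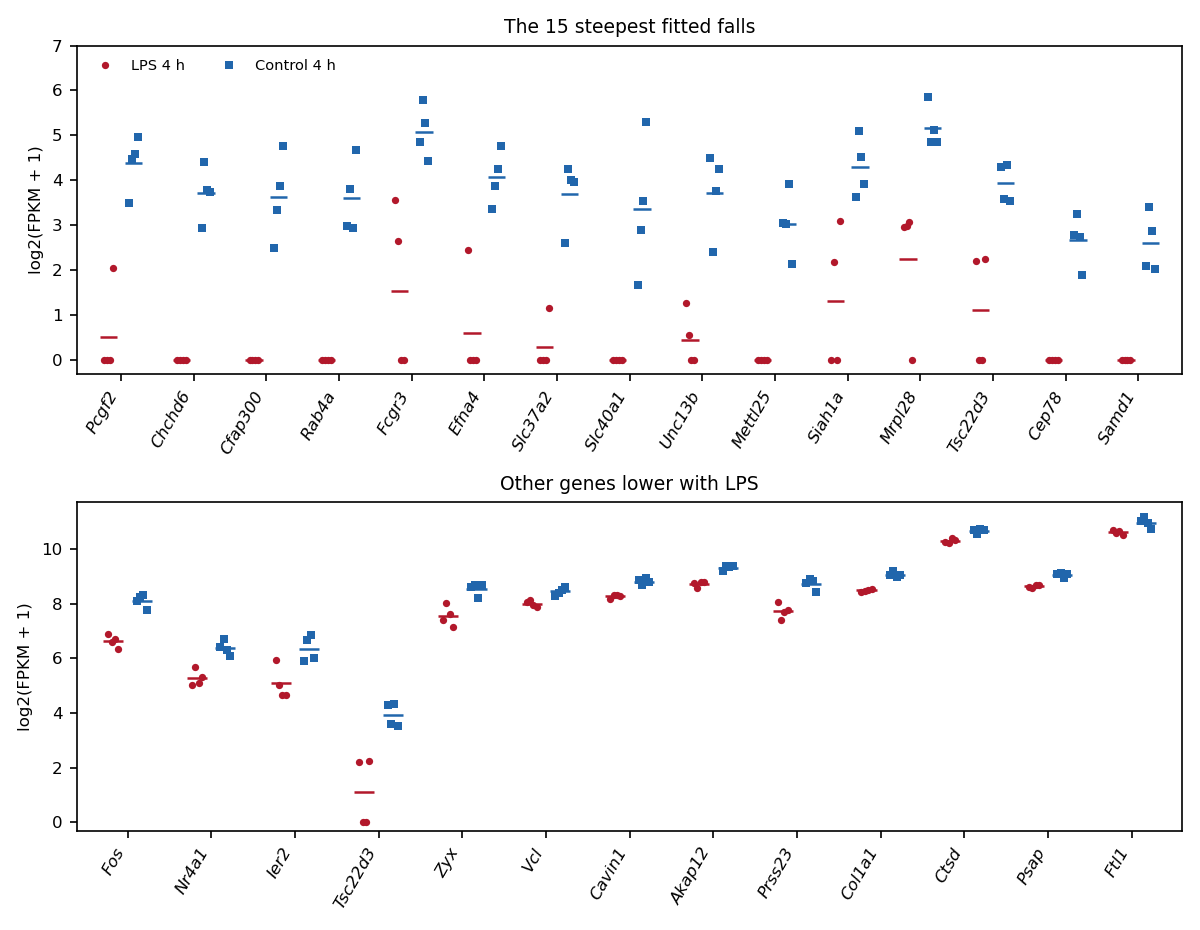
Each point is 1 library at 4 h, LPS in red and Control in blue, with log2(FPKM + 1) on the y axis and horizontal bars for means of 4. The upper panel holds the 15 steepest fitted falls among genes that passed, most with LPS libraries listed at 0; the lower panel holds the early transcription factors and abundant genes, which fell by less and stayed above 0, Tsc22d3 apart.

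The 15 steepest fitted falls among called genes with separate groups and an average of 5 FPKM or more in Control rested on few fragments. Over the 4 LPS libraries, 7 of these genes were listed at 0 throughout: Chchd6, Cfap300, Rab4a, Slc40a1, Mettl25, Cep78 and Samd1. Rab4a, a GTPase of endosome recycling, had 6.91, 13.0, 6.70 and 24.6 FPKM in Control (adjusted p = 0.000816), from about 10 fragments. Slc37a2, a sugar phosphate carrier of macrophages, had 0, 0, 0 and 1.25 FPKM with LPS, against 5.07, 18.1, 15.1 and 14.6 FPKM in Control (adjusted p = 0.00443). Unc13b, of vesicle priming, had 1.42, 0.47, 0 and 0 FPKM with LPS, against 21.7, 4.34, 12.5 and 17.9 FPKM in Control (adjusted p = 0.00868; 0.0901 with a pseudocount of 0.1 FPKM). Both were near 0 in all LPS libraries. Pcgf2, a Polycomb protein, had 0, 0, 0 and 3.15 FPKM with LPS, against 10.4, 21.1, 23.0 and 30.0 FPKM in Control, the steepest fitted fall. Pcgf2 was not called without LPS replicates 1, 2 or 3 or Control replicates 2, 3 or 4, each left out alone (adjusted p = 0.0819 to 0.101). Fcgr3, a macrophage receptor for IgG, had 10.8, 5.25, 0 and 0 FPKM with LPS, against 28.0, 54.0, 37.6 and 20.7 FPKM in Control. Fcgr3 was not called without LPS replicates 3 or 4 or Control replicates 1, 2, 3 or 4, each left out alone (adjusted p = 0.0703 to 0.15). Efna4, Chchd6, Cfap300, Siah1a, Mrpl28, Cep78 and Samd1 also lost their calls when some libraries were left out, and Rab4a, Slc37a2, Unc13b, Mettl25 and Tsc22d3 kept theirs with each library left out.

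No member passed in 5 lists. Over all tested genes, 56.2% had fitted values below 0, 12.7% had an unadjusted p under 0.05 in limma, and the median was -0.11. Of 24 homeostatic astrocyte genes 5 had fitted values above 0 and 19 below, with 8 at an unadjusted p under 0.05 and a median of -0.66. Glul, glutamine synthetase, had 66.2, 49.8, 67.3 and 46.6 FPKM with LPS, against 98.2, 112, 142 and 74.5 FPKM in Control. Every LPS library was below every Control library, and it did not pass (log2 fold change -0.86 ± 0.23, SE; adjusted p = 0.0539), though it did without Control replicate 4 (adjusted p = 0.0258). Slc38a3, a glutamine carrier, had 2.91, 11.3, 0 and 0 FPKM with LPS, against 9.12, 11.3, 27.3 and 30.8 FPKM in Control (adjusted p = 0.0756), and passed without LPS replicate 2 (adjusted p = 0.0135). Of 29 cell cycle genes 20 had fitted values below 0 (median -0.36, with 4 at an unadjusted p under 0.05), and Mcm6, of the replicative helicase, had 10.2, 4.78, 10.3 and 5.09 FPKM with LPS, against 28.2, 15.0, 22.4 and 16.8 FPKM in Control (adjusted p = 0.0948). Bub1, a spindle checkpoint kinase, was listed at 0 in all LPS libraries and had 4.37, 6.39, 2.12 and 0 FPKM in Control (adjusted p = 0.294).

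Of 18 Notch, BMP, Wnt and Hedgehog targets, Id1, a BMP target, had 84.4, 81.9, 125 and 77.2 FPKM with LPS, against 144, 179, 155 and 179 FPKM in Control, apart but not passing (adjusted p = 0.0525); it passed without LPS replicate 3 (adjusted p = 0.0262). Ptch1, the Hedgehog receptor, did not pass (adjusted p = 0.0598), and did so without LPS replicate 1 (adjusted p = 0.0462) or without Control replicate 2 or 3 (adjusted p = 0.0312 and 0.0474). Of 18 sterol genes, Sqle, of cholesterol synthesis, had 18.2, 27.7, 32.7 and 18.8 FPKM with LPS, against 36.8, 50.1, 47.2 and 32.9 FPKM in Control. Abca1, the cholesterol exporter, had 19.6, 16.3, 16.9 and 16.6 FPKM with LPS, against 30.6, 28.4, 31.0 and 31.3 FPKM in Control. All LPS libraries of both were below Control, with adjusted p = 0.183 and 0.179. Of 14 clock genes, Per1 had 30.6, 3.00, 7.59 and 4.90 FPKM with LPS, against 23.4, 27.7, 28.0 and 30.3 FPKM in Control. LPS replicate 1 lay above all of Control and the other LPS libraries far below it (adjusted p = 0.151), and without that library Per1 was lower (adjusted p = 0.0142). Nfil3 was at 11.1 to 18.3 FPKM with LPS, against 3.44 to 10.7 FPKM in Control (adjusted p = 0.118). At unadjusted p under 0.05 these 3 lists held 3 of 18, 5 of 18 and 3 of 14 genes, against 12.7% of all tested genes.

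Among abundant genes outside the lists, Sqstm1 (p62), a receptor of selective autophagy, had 876, 784, 954 and 930.4 FPKM with LPS, against 309.6, 375, 365 and 289 FPKM in Control, a log2 fold change of 1.41 ± 0.12 (SE; adjusted p = 6.43e-07); Mrnip overlaps it on the opposite strand. Clic4, a chloride channel protein, changed by 0.83 ± 0.13 (SE; adjusted p = 0.00048). Alas1, which starts heme synthesis, had 360.1, 479.8, 339 and 503 FPKM with LPS, against 193, 316, 205 and 138 FPKM in Control. Alas1 was not called without LPS replicates 2 or 4 or Control replicates 1, 3 or 4, each left out alone (adjusted p = 0.0507 to 0.0849).

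The authors' deposited pathway annotation gave a second grouping. Of 93 tested genes of the TNF signaling pathway, 26 were higher and 1 lower, and of 143 genes of cytokine-cytokine receptor interaction, 33 were higher and 1 lower. The NOD-like receptor pathway had 27 higher of 131, the NF-kappa B pathway 18 of 83, the Toll-like receptor pathway 15 of 69 and the RIG-I-like receptor pathway 11 of 45. In oxidative phosphorylation 0 of 119 genes passed and among ribosome genes 1 of 128, which was lower; with 2.43% of all tested genes passing, such counts say nothing particular to these sets. In the lysosome set 2 were higher and 2 lower of 117, and in focal adhesion 6 were higher and 3 lower of 159. Medians ran from -0.12 in focal adhesion to 0.71 in the RIG-I-like receptor pathway, against -0.11 over all tested genes.

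Genes that rose also lay side by side on chromosomes. With gaps of at most 100000 bases between neighbours, 9 groups of 3 or more held 41 of the 241 higher genes. Each group was built from genes called higher and ends at such genes. The counts of higher among tested genes below are therefore tied to that choice and are not a test. Over all tested genes 1.92% were higher and 0.503% lower. None of the tested genes inside the groups was lower, which says little because few of them were not higher. In GRCm38, 8 PYHIN genes (Ifi206, Ifi213, Ifi209, Ifi204, Mndal, Ifi211, Ifi203 and Ifi205) rose out of 11 tested on chromosome 1 from 173468485 to 174031810. Ch25h and 5 Ifit genes rose on chromosome 19 from 34473778 to 34650009, where Lipa was the tested gene between them that did not pass. On chromosome 11, Ccl5, Ccl9, Ccl3 and Ccl4 rose, 4 of 4 tested, from 83525778 to 83664683, and so did Slfn5, Slfn9, Slfn8 and Slfn2, interferon-induced Schlafen genes, 4 of 4 tested from 82951349 to 83070678. On chromosome 7, 5 of 8 Trim genes rose, on chromosome 3 Gbp5, Gbp7, Gbp3 and Gbp2, 4 of 4, and on chromosome 16 Parp14, Dtx3l and Parp9, 3 of 3. Such genes are copies of each other in most groups and may share reads.

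The same contrast was read in 8 libraries that the LPS and Control groups do not use, LPS+PBM against PBM at 4 h, fitted together with them. There 356 genes (2.84%) passed, 243 higher (1.94%) and 113 lower (0.902%). Of the 241 genes higher with LPS alone, 235 (97.5%) had the same sign, as had 37.8% of all tested genes (a fitted value above 0), and 161 passed, which is 66.8% of the 241 and 66.3% of the 243. Of the 63 lower genes, 54 (85.7%) had the same sign, as had 59.1% of all tested genes (a fitted value below 0), and 17 passed, which is 27.0% of the 63 and 15.0% of the 113. The median fitted change of the 241 was 2.46 with LPS alone and 1.82 with LPS under light, and that of the 63 was -1.46 and -0.51; the genes were chosen in the contrast without light, so the smaller values in the other are not a test. Fewer lower genes, 57, passed with only LPS+PBM and PBM in the fit, and 62 to 65 without any 1 PBM library. By list, GBP and immunity-related GTPases passed in 9 of 16 and interferon effectors in 22 of 53 in the light arm, against 14 and 39 without light. CC chemokines passed in 7 of 14 and CXC and CX3C chemokines in 5 of 12, the same counts as without light. NF-kappaB subunits passed in 4 of 5 and the inhibitors and feedback genes in 9 of 20, against 2 and 7 without light.

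A test of the difference between the LPS effects with and without light passed in 4 of 12523 genes (0.0319%), all early-response genes: Nr4a1, Fosb, Junb and Nfkbiz, the last 3 named for this result. Nr4a1, which fell with LPS alone (values above), had 42.1, 66.2, 68.6 and 76.5 FPKM with LPS+PBM, against 23.8, 19.3, 18.0 and 25.3 FPKM with PBM alone, and was called lower without light and called higher under it. The difference was 2.59 ± 0.35 (SE; adjusted p = 0.00903). Fosb, a partner of Jun proteins, had 49.3, 66.7, 65.6 and 50.6 FPKM with LPS, against 126, 94.3, 131 and 80.0 FPKM in Control, and 112, 89.0, 94.5 and 89.3 FPKM with LPS+PBM, against 33.0, 29.9, 55.0 and 29.6 FPKM with PBM alone, a difference of 2.27 ± 0.33 (SE; adjusted p = 0.00965). All PBM libraries lay below all Control libraries. Nfkbiz (IkappaB-zeta), a co-factor of NF-kappaB at secondary genes, had 81.0, 76.7, 78.7 and 68.8 FPKM with LPS, against 35.0, 40.1, 39.9 and 52.0 FPKM in Control, and 145, 145, 128 and 122 FPKM with LPS+PBM, against 9.76, 9.73, 20.5 and 17.3 FPKM with PBM alone, a difference of 2.35 ± 0.35 (SE; adjusted p = 0.00965). For Junb the difference was 1.53 ± 0.24 (SE; adjusted p = 0.0161). In all 4 genes every PBM library was below every Control library. The 4 genes were chosen by a difference that high Control values and low PBM values raise. Their separation is therefore tied to that choice and is not a result of its own. PBM against Control was not tested here.

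The changes at 4 h were set against those at 24 h in libraries of their own. Of the 241 genes higher at 4 h, 101 (41.9%) were called higher at 24 h, where 434 genes (3.27%) passed in all, 1.91% higher and 1.36% lower. Of the 63 lower ones, 21 (33.3%) were called lower. The difference of these changes, 24 h minus 4 h, passed in 88 of 13280 genes (0.663%), 26 higher (0.196%) and 62 lower (0.467%), and among the 241 it was lower in 48 and higher in 1. The 241 were chosen as high in the 4 h contrast that is subtracted, which favours lower differences among them, so this count is not a test. By list, the difference was lower in 20 of 53 effectors and 9 of 16 guanylate-binding and immunity-related GTPases, but in 0 of 14 CC chemokines and 1 of 12 CXC and CX3C chemokines. With only LPS and Control of both times in the fit, 52 genes passed, 34 of them lower, and without LPS replicate 1 or 3 of 4 h, 41 were lower in place of 62.

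LPS and Control libraries both differed between the times. Rsad2 had 314, 447, 403 and 271 FPKM with LPS and 5.92, 0, 5.74 and 5.54 FPKM in Control at 4 h, and 57.5, 43.9, 58.2 and 32.8 FPKM with LPS and 48.1, 16.6, 27.8 and 36.4 FPKM in Control at 24 h, a difference between times with adjusted p = 4.32e-06. LPS libraries were lower at 24 h than at 4 h in every case, and Control libraries higher. Ifit3 had 783, 1009.6, 958 and 1033 FPKM with LPS and 1230.1, 500.0, 924 and 967 FPKM in Control at 24 h, so that Control at 24 h was above Control at 4 h in every library (4 h values above), and its difference was -2.46 ± 0.26 (SE; adjusted p = 1.09e-06). Stat2 had 59.1, 34.5, 48.5 and 64.7 FPKM with LPS and 69.0, 46.1, 61.4 and 47.0 FPKM in Control at 24 h (log2 fold change -2.09 ± 0.34, SE; adjusted p = 0.000672), with every Control library at 24 h above every one at 4 h. Ifit1 and Ifit2 had differences of -2.45 ± 0.25 (SE; adjusted p = 1.09e-06) and -3.22 ± 0.42 (SE; adjusted p = 3.04e-05).

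Cxcl10 stayed high with LPS, at 509, 633, 597 and 725 FPKM with LPS and 187, 31.9, 41.1 and 62.9 FPKM in Control at 24 h, with a difference of -2.61 ± 0.61 (SE; adjusted p = 0.035), and Vcam1 and Sqstm1 had differences of -1.09 ± 0.25 (SE; adjusted p = 0.0311) and -1.14 ± 0.17 (SE; adjusted p = 0.00013). Il1b was the gene higher at 4 h whose change was larger at 24 h, with 331, 474, 249 and 393 FPKM with LPS and 0 in all 4 Control libraries at 24 h (adjusted p of the difference = 0.00661). Cd14, which did not pass at 4 h, had 98.3, 96.7, 161 and 173 FPKM with LPS and 13.9, 12.8, 0 and 0 FPKM in Control at 24 h (adjusted p of the difference = 0.0352). Saa3 reached 4005, 4507, 3592 and 4559 FPKM with LPS at 24 h, and its difference missed the threshold (adjusted p = 0.0627). Ccl2, Ptgs2 and Slc7a2 had log2 fold changes at 24 h of 5.86 ± 0.39, 1.60 ± 0.11 and 4.29 ± 0.21 (SE), and their differences did not pass (adjusted p = 0.961, 0.902 and 0.963).

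**Figure D5:**
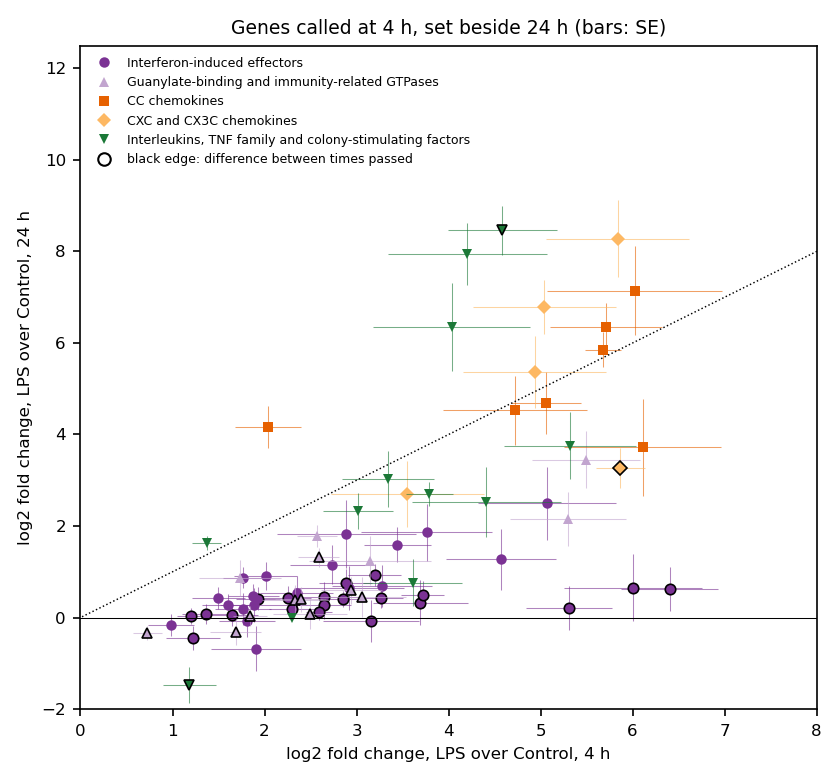
Each point is 1 gene of 5 lists called at 4 h, with the log2 fold change of LPS over Control at 4 h on the x axis and at 24 h on the y axis; bars are SE, the dotted line marks equal changes and a black edge marks genes whose difference between times passed. Most interferon effectors (purple) lie below the line near 0 at 24 h, while CC chemokines (orange squares) lie near or around it.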

How the data were processed

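RNA was sequenced from 32 libraries of mouse primary astrocyte cultures, in 8 groups of 4, of which LPS and Control at 4 h are compared here. Per the labels' protocols, total RNA was extracted with Trizol, oligo-dT primed and template-switched into full-length cDNA, amplified by PCR and sequenced on an Illumina NovaSeq. The submitters' processing notes name fastp 0.18.0, Bowtie2 2.2.8, HISAT2, StringTie 1.3.1, RSEM and the mm10 build, with no role for each. The authors deposited 1 table of FPKM per gene, with 21899 genes, and not counts. Depth was inferred from the FPKM steps of genes with a single transcript: 92.32% of 23418 values of up to 20 fragments were whole within 0.05 fragments. PCR copies are not independent molecules, so floors cover counting error only.

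The deposited FPKM values were taken to log2(FPKM + 1) after a filter of a mean of at least 1 FPKM in LPS or Control, and fitted with limma 3.58.1 (R 4.3.3; moderated with trend and robust settings) on all 16 libraries of 4 h, with Benjamini-Hochberg adjustment over 12523 genes and a threshold of 0.05. The fold change understates low genes. The change between times was fitted over all 32 libraries and 13280 genes. On simulated data of 11996 genes the same fit called 10% of genes changed by 1 on the log2 scale, 74% by 2 and 94% by 3 or 4, with 11 false of 147 calls. The changed genes were drawn from those averaging at least 3 fragments. Every gene was given the same fixed spread, which was not estimated from these libraries. These rates therefore do not cover genes with fewer fragments or with a larger spread.

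Named genes were the 15 largest rises and 15 largest falls among called genes with separate groups and a mean of at least 5 FPKM in the higher group, in each list up to 8 called genes taken in order of adjusted p (where none passed, the 2 lowest p), the 12 most abundant called genes outside the lists, those of them whose change differed between times, and genes of the pathway and title. Predicted and clone names were left out. Other list members that did not pass were named after their values were seen. Some genes that meet the rule are not reported here. Members and lists were chosen with earlier results of these data known. Gene IDs were matched to GENCODE M21 for 21806 genes, and promoter windows come from RefSeq (GRCm38.p6). Replicate numbers showed no pairing of libraries (correlations of same-numbered deviations -0.029 to 0.033 over 24 pairs and 8921 genes). At this depth counting error is part of each deviation, so the check could miss a weak pairing. The alternatives were another pseudocount, filter, normalization and set of libraries, library weights, the replicate block, leaving out each library and, added after the data were seen, limma-voom on approximate fragments.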

Additional observations from a re-analysis of the deposited data

Results flagged for a closer look

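In some named genes 1 library stood apart from the other 3 of its group by Dixon's test. For normally distributed values, chance alone gives this in about 1 of 20 groups. A group with 3 libraries at 0 and 1 above 0 always meets the rule, so that rate does not hold there. A single LPS library at 4 h was high in Ccl5 (724 FPKM in replicate 4), Efna4 (4.48 FPKM in replicate 1), Id1 (125 FPKM in replicate 3), Igtp (141 FPKM in replicate 3), N4bp1 (30.2 FPKM in replicate 3), Pcgf2 (3.15 FPKM in replicate 4), Per1 (30.6 FPKM in replicate 1), Slc37a2 (1.25 FPKM in replicate 4) and Tlr4 (16.9 FPKM in replicate 4), and low in Mrpl28 (0 FPKM in replicate 4) and Nfil3 (11.1 FPKM in replicate 3). A single Control library was high in Ccl4 (10.6 FPKM in replicate 4), Cd40 (4.68 FPKM in replicate 1), Ch25h (10.1 FPKM in replicate 4), Gbp4 (13.8 FPKM in replicate 2), H2-K1 (229 FPKM in replicate 2), Il1rn (3.51 FPKM in replicate 4), Mx1 (5.40 FPKM in replicate 2), Parp14 (13.2 FPKM in replicate 4), Saa3 (12.6 FPKM in replicate 4), Slc11a2 (27.9 FPKM in replicate 2), Steap4 (2.29 FPKM in replicate 3) and Zc3h12a (7.88 FPKM in replicate 3), and low in Rsad2 (0 FPKM in replicate 2), Tlr2 (0 FPKM in replicate 1) and Zyx (294 FPKM in replicate 3). Most of these Control values came from genes at or near 0 in the other Control libraries.

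The effect of LPS under light minus that without light passed the limma test of the difference at 4 h in 4 genes, with log2 differences above 0: Fosb (2.27), Junb (1.53), Nfkbiz (2.35) and Nr4a1 (2.59). The effect of LPS at 24 h minus that at 4 h passed with a negative log2 difference in Cmpk2 (-5.10), Cxcl10 (-2.61), Gbp2 (-1.27), Ifi203 (-2.13), Ifit1 (-2.45), Ifit2 (-3.22), Ifit3 (-2.46), Ifit3b (-2.85), Igtp (-1.96), Iigp1 (-2.35), Irgm2 (-1.99), Mx1 (-5.36), Parp14 (-2.26), Rsad2 (-5.78), Sqstm1 (-1.14), Stat2 (-2.09), Tap1 (-1.65), Tgfb2 (-2.65), Tgtp2 (-1.81) and Vcam1 (-1.09). It passed with a positive log2 difference in Cd14 (3.66), Cfap300 (6.83) and Il1b (3.88). Of these, the differences of Cd14, Cfap300, Il1b, Mx1 and Rsad2 rest on groups with libraries listed at 0.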

How the results depend on the processing

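Of 304 calls in LPS versus Control at 4 h, leaving out each library in turn gave 243 to 273, and other settings 250 to 384. Genes higher numbered 196 to 221 with a library left out, and genes lower 45 to 60. limma-voom on approximate fragments, an alternative chosen after the data were seen, gave 105 lower genes in place of 63; the cause was not tested. In LPS+PBM versus PBM at 4 h, 113 lower genes became 57 with only the groups compared in the fit, and 62 to 96 with a library left out. In the LPS effect at 24 h minus 4 h, 88 calls became 52 and 62 lower ones 34 with only the groups compared, which leaves fewer libraries in the fit; with a library left out these were 62 to 89 and 41 to 59. The replicate block gave 280 calls in LPS versus Control, 309 in LPS+PBM versus PBM and 63 in the difference between times. Since no pairing by number was found, though a weak one could be missed, these are given as a check only. Of 138 named genes called, 91 stayed called in all 16 alternatives, 47 lost the call in at least 1, and 0 of 154 named genes reversed sign. Depth limits low genes, where 3 fragments on 1 kb are 20.9 to 22.5 FPKM.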
